A study of Mus musculus with 6 samples.

Results

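The 54 genes described here encode the protein-folding and stress machinery of the endoplasmic reticulum (ER), the cytosol and the mitochondria. They were chosen by name, as rows of the deposited table that carry exactly 1 of the listed symbols, with the brightest row kept per gene. Of the 54 genes, 50 were measured among 22180 genes tested in all, and 2 of these were found under their current symbols, Ero1a for Ero1l and Ero1b for Ero1lb. Pdia4 and Dnaja1 appeared only in rows annotated with several genes, no row was annotated with Hsf1 or Hsp90ab1 alone, and these 4 genes were not analysed here. The 50 comprise 4 genes of the stress sensors and their factors, 14 of ER folding, 2 of ER translocation, 11 of ER-associated degradation (ERAD), 15 of the cytosolic heat shock system and 4 mitochondrial chaperones.

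Affymetrix arrays were used to profile RNA from PU.1low URE-/- cells, a mouse line of acute myeloid leukaemia (AML) that came from a leukaemic mouse lacking the upstream regulatory element of the PU.1 gene, an enhancer. All samples come from this 1 line, so vehicle and treated cells share the deletion and the low PU.1. In 1 group, DB2313, a small molecule described as an inhibitor of the transcription factor PU.1, was present at 330 nM for 24 h, and in the other an equal volume of water (vehicle) for 24 h. Each group had 3 arrays, which the labels call biological replicates. The labels do not say if each was a culture of its own, and the p-values cover no more than the spread among these arrays, which may be technical. No age or strain of the source mouse is given.

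Proteins that enter the secretory pathway are threaded into the ER, where chaperones and oxidoreductases fold them. When unfolded proteins build up, membrane sensors start the unfolded protein response, which raises transcription of ER chaperones and of ERAD factors, the machinery that returns misfolded proteins to the cytosol for the proteasome. The cytosol has a separate heat shock response, driven by heat shock factors that raise chaperones and their cochaperones. Granule-producing myeloid cells make large amounts of secretory protein, so this machinery is active in them as a normal function.

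Many promoters of the first response carry an ER stress response element (ERSE), read here as CCAAT, 9 bases of any kind, then CCACG. RefSeq promoter windows (GRCm38.p6, from 250 bases before to 50 after each start site) were found for 43 of the 50 genes. On either strand, an ERSE lay in the windows of 9 of these 43 genes (20.9%), against 37 of all 27025 genes with a window (0.137%). The choice by name did not use the sequences, but it took genes of this response, so their high share is not an independent result. The matches are shown because they hold both the gene of the 50 that passed the test across all genes and the best known target of the response. They are written along the gene, with the fixed letters in capitals, and those that begin with CGTGG read as an ERSE on the opposite strand.
Hspa5, chr2:34772025-34772043: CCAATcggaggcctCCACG
Ero1b, chr13:12565682-12565700: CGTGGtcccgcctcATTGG
Hsp90b1, chr10:86705638-86705656: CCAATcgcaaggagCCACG
Hsp90b1, chr10:86705533-86705551: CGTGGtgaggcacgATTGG
Pdia6, chr12:17266491-17266509: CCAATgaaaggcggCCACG
Dnajc3, chr14:118937827-118937845: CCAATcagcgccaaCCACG
Canx, chr11:50325800-50325818: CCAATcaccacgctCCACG
Creld2, chr15:88819520-88819538: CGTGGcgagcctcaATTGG
Derl3, chr10:75893242-75893260: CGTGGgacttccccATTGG
Syvn1, chr19:6046532-6046550: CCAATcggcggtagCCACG

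The 250 bases before the start site are shown for Ero1b, the gene that passed the test, and for Hspa5, with the same matches in capitals throughout. In Ero1b the match begins at position -201 from the start site, and in Hspa5 at position -65.
Ero1b, chr13:12565633-12565882, plus strand: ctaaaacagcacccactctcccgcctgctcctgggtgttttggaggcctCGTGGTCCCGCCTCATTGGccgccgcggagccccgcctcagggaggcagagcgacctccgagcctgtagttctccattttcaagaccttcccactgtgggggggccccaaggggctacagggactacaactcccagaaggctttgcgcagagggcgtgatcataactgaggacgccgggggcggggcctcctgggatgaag
Hspa5, chr2:34771840-34772089, plus strand: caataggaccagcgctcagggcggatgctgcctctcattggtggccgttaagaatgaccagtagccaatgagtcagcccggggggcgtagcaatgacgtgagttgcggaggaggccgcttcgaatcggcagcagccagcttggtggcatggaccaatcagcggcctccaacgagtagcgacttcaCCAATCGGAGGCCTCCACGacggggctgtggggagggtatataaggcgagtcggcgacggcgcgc

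The arrays were alike in scale, and most markers of the labelled cell type were present. The median signal of the tested genes lay between 5.15 and 5.21 (log2) on all 6 arrays. Of 8 markers of myeloid progenitors, 7 had signals above the median of all genes, with the granule protease gene Elane at 13.05 in vehicle, while Ptprc, the common leukocyte antigen, was at 3.32. None of 4 T cell, 3 B cell or 3 megakaryocyte markers exceeded that median, against 1 of 3 macrophage, 1 of 2 erythroid and 2 of 4 stromal markers. The 2 listed as stromal were Pecam1, at 8.72 in vehicle, and Col1a1, at 5.80. None of these 27 markers passed limma's test between the groups over all genes, and 4 of them had an unadjusted p under 0.05. These were Cd68, a macrophage lysosomal protein, at -0.47 (limma adjusted p = 0.0554), Mpo, the granule peroxidase, at 0.29, the erythroid factor Klf1 at -0.26 and the platelet receptor subunit Gp9 at -0.27 (log2). Their part in the results for the chaperone genes was not tested.

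The comparison asked which transcripts differ after 24 h of the inhibitor, and 1 gene of the folding machinery passed the test over all genes. Ero1b, which encodes an oxidase that supplies disulfide bonds to the ER, fell, and was the gene of the 50 that passed limma's moderated test across all genes at an adjusted p of 0.05. That is 1 gene lower and 0 higher of 50, where 0.789% of all genes tested were called lower and 1.02% higher. Before adjustment, 9 of the 50 genes had a p under 0.05 (18%), 6 higher and 3 lower, where 12.7% of all genes did. The median log2 difference of the 50 genes was -0.04, with 32 below 0 (64%). That of all genes tested was -0.0024, with 50.9% below 0. The median size of the difference, whatever its sign, was 0.10 for the 50 genes and 0.08 for all genes (log2).

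For most of the 49 genes not called, the arrays bound the change narrowly. The 95% confidence interval lay within a 1.25-fold change in either direction (0.32 on the log2 scale) for 37 of the 49, and within 1.5-fold for 48 of the 49. The exception at 1.5-fold was Hspa2, whose interval reached 0.62 (log2). The intervals had a median width of 0.15 to each side. They are per gene, without adjustment for the number of genes. The SD between the 3 arrays had a median of 0.07 in vehicle and 0.05 with DB2313 over the 50 genes.

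**Figure D1:**
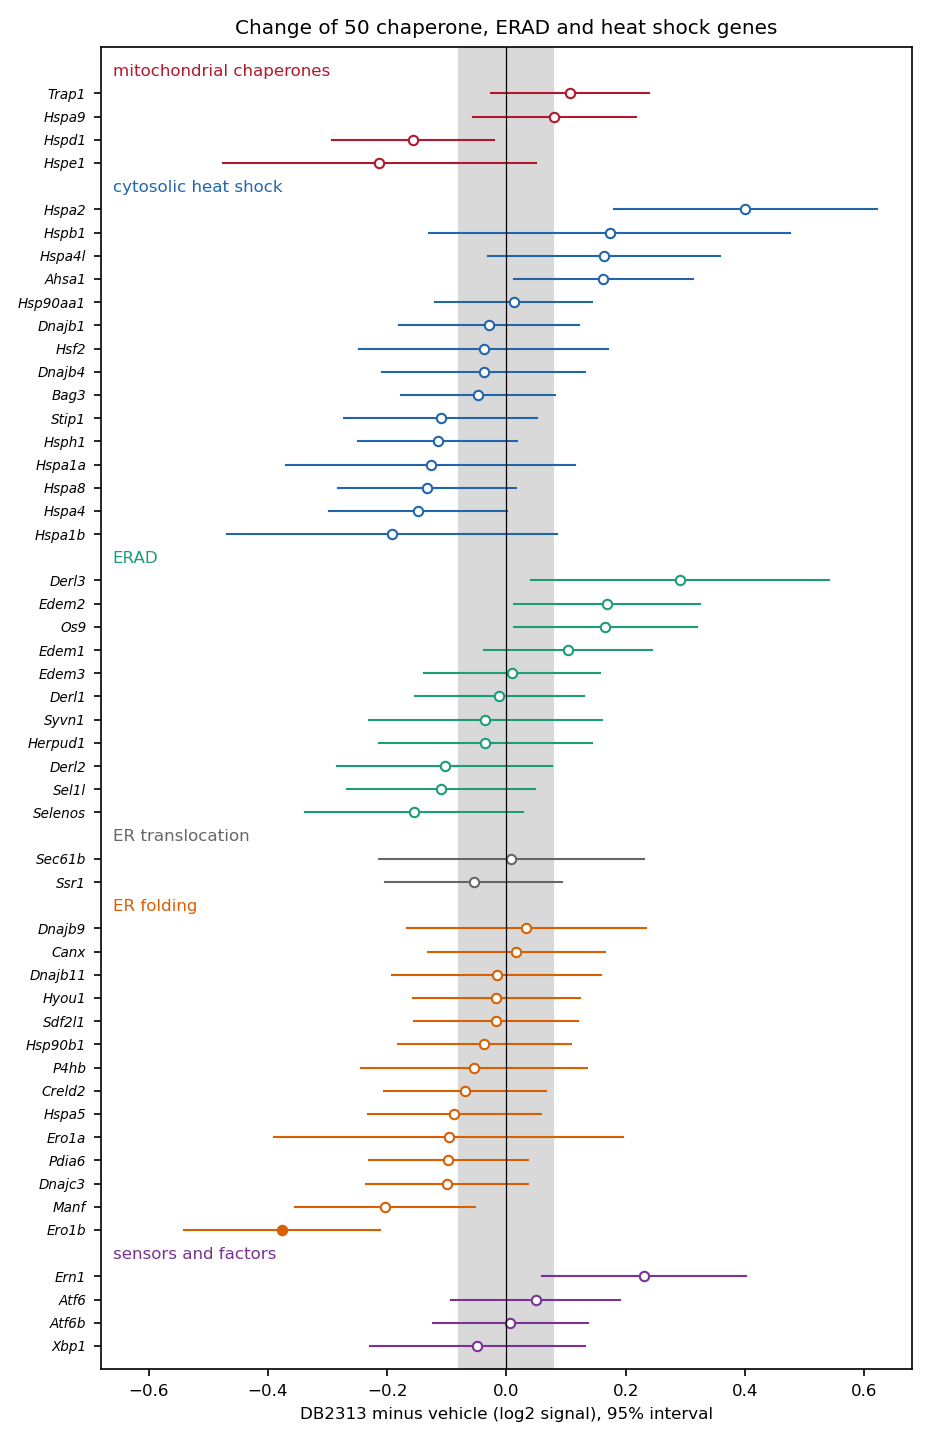
Difference between DB2313 and vehicle (log2, x axis) for each of the 50 measured genes, grouped by role, with points for the fitted difference and lines for its 95% interval (3 arrays per group). The filled point, Ero1b at -0.38, is the only one past an adjusted p of 0.05; the grey band holds the middle 50% of all genes tested, from -0.08 to 0.08.

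The values on all 3 DB2313 arrays lay above all 3 vehicle values for 8 of the 50 genes (16%), where this held for 9.75% of all genes. They lay below for 11 of the 50 (22%), against 9.55% of all genes. The groups overlapped for the other 31 genes. Of the 11 lower genes, 5 belong to ER folding (Pdia6, Dnajc3, Manf, Creld2 and Ero1b), 4 to the cytosolic system (Hspa4, Hspa8, Hsph1 and Bag3), 1 is the ERAD gene Sel1l and 1 the mitochondrial chaperonin gene Hspd1. The 8 higher genes are Ern1, Edem1, Edem2, Os9, Hspa2, Ahsa1, Hspa9 and Trap1. Many of these separations were small, as with Bag3 at -0.05 and Hspa9 at 0.08 (log2).

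**Figure D2:**
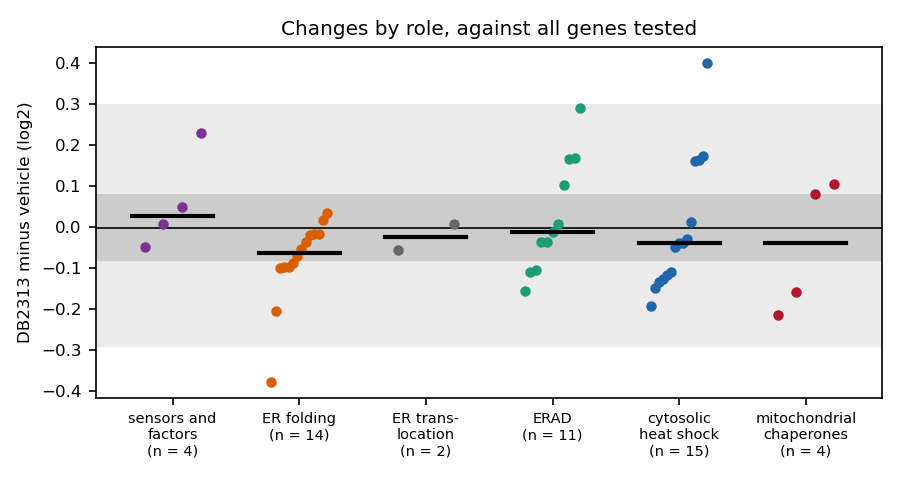
Difference between DB2313 and vehicle (log2, y axis) of each measured gene by role, 1 point per gene, with black bars at the median of the role. The dark and light bands hold the middle 50% and the middle 95% of all 22180 genes tested; Ero1b at -0.38 and Hspa2 at 0.40 are the only points outside the light band, which runs from -0.29 to 0.30.

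Of the sensors, Ern1, the kinase and RNase that splices Xbp1 messenger RNA, had the largest difference. Its signals were 9.03, 8.89 and 8.90 with vehicle and 9.25, 9.08 and 9.17 with DB2313 (log2). Every treated array was above every vehicle array, and the log2 difference was 0.23 (SE 0.073, 95% interval 0.06 to 0.40), but the gene did not pass over all genes (limma adjusted p = 0.233). It passed with a variance prior that follows the signal and is robust to outlying genes (adjusted p = 0.0437). Xbp1, the transcription factor whose messenger RNA Ern1 splices, had 10.25, 10.44 and 10.29 with vehicle and 10.18, 10.34 and 10.31 with DB2313. The groups overlapped, with a difference of -0.05 (interval -0.23 to 0.13, limma adjusted p = 0.857), and the array signal does not separate spliced from unspliced Xbp1. Atf6, a sensor that is cut in the Golgi to release a transcription factor, and its relative Atf6b differed by 0.05 and 0.01, and neither passed (limma adjusted p = 0.812 and 0.977). The sign for Xbp1 and for Atf6b each turned in 1 of 13 alternative settings. The median of the 4 genes was 0.03.

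Among the 14 genes of ER folding, 12 differed by less than 0 and the median was -0.06, where 50.9% of all genes tested were below 0. The related genes of ER folding and glycan trimming did not share this lean. Of those 22 genes, 8 were below 0 and 14 above, with a median of 0.04. Hspa5 encodes BiP, the main ER chaperone and the standard readout of the unfolded protein response. Its signals were 8.93, 8.96 and 8.91 with vehicle and 8.79, 8.92 and 8.83 with DB2313. The top treated value lay within the vehicle range, and the difference was -0.09 (SE 0.062, interval -0.23 to 0.06, limma adjusted p = 0.636). Hsp90b1, the ER form of the HSP90 chaperones, and Canx, the lectin chaperone calnexin, differed by -0.04 and 0.02, and both had groups that overlapped.

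Ero1b had 7.53, 7.50 and 7.49 with vehicle and 7.12, 7.03 and 7.24 with DB2313. The 3 treated values all lay below the vehicle values. Vehicle averaged 7.51 ± 0.02 and DB2313 7.13 ± 0.10 (log2, SD, n = 3). The log2 difference was -0.38 (SE 0.071, interval -0.54 to -0.21), or 1.30-fold lower, with an adjusted p of 0.0472 in limma. In RNA from whole cultures, fewer cells that express a gene and less RNA per cell cannot be told apart. The direction was the same in all 13 alternative settings, from -0.43 to -0.31. Some of these settings cannot change it. The signal filters, the prior and the block leave a gene's difference as it is, as does the row mean for a gene with 1 row. Leaving out any 1 of the 6 arrays ended the call, and the adjusted p then ran from 0.0681 (without DB2313 replicate 3) to 0.158 (without DB2313 replicate 1). Ero1a, the paralogue known for its induction by hypoxia, differed by -0.10 with a wide interval (-0.39 to 0.20), since its arrays varied with an SD of 0.19 in each group. Whether Ero1a and Ero1b differ in response was not tested.

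Manf, which encodes a small secreted ER stress factor, had 5.91, 5.78 and 5.85 with vehicle and 5.63, 5.70 and 5.60 with DB2313. The treated values were all lower, with a difference of -0.20 (interval -0.35 to -0.05), and the gene did not pass (limma adjusted p = 0.231). Pdia6, a disulfide isomerase, and Dnajc3, a cochaperone of BiP that also restrains the eIF2 kinases, differed by -0.10 each with groups apart, and neither passed (limma adjusted p = 0.552 and 0.547). Creld2, another ER stress-induced gene, differed by -0.07. The remaining members, the isomerase P4hb, the BiP cochaperones Dnajb9, Dnajb11 and Sdf2l1, and the exchange factor Hyou1, lay between -0.05 and 0.03 with overlapping groups.

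Neither of the translocation genes passed. Ssr1, a subunit of the translocon-associated complex, differed by -0.05 and Sec61b, a subunit of the channel itself, by 0.01 (limma adjusted p = 0.795 and 0.983). The sign for Sec61b turned in 5 of 13 alternative settings.

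**Figure D3:**
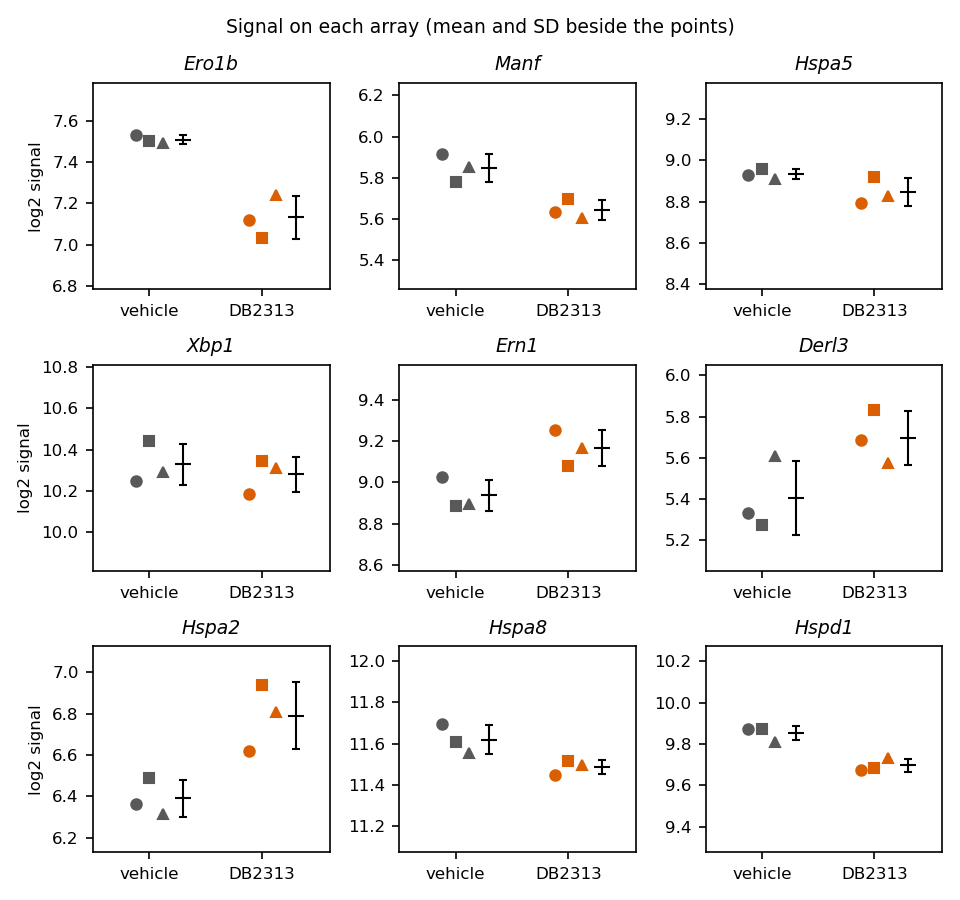
Log2 signal (y axis, each panel spanning 1 unit) on each array for 9 genes, with vehicle in grey and DB2313 in orange; the circle, square and triangle are replicates 1, 2 and 3, and the bars give the mean and SD of the 3 arrays. The treated arrays sit apart from vehicle for Ero1b, Manf, Ern1, Hspa2, Hspa8 and Hspd1, and the groups overlap for Hspa5, Xbp1 and Derl3.

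ERAD genes went both ways, 6 below 0 and 5 above, with a median of -0.01, and none passed. The 3 with an unadjusted p under 0.05 (27.3%) were higher, where 12.7% of all genes had such a p in either direction. Of the 19 related ERAD genes, 1 had such a p (5.26%), and their median was also -0.01. Derl3, a derlin of the channel through which ERAD substrates leave the ER, had 5.33, 5.27 and 5.61 with vehicle and 5.69, 5.83 and 5.57 with DB2313. The lowest treated value fell below the top vehicle value, and the difference was 0.29 (interval 0.04 to 0.54, limma adjusted p = 0.315). Edem2, a mannosidase that marks misfolded glycoproteins, had 9.70, 9.84 and 9.72 with vehicle and 9.94, 9.97 and 9.87 with DB2313, a difference of 0.17 (interval 0.01 to 0.32, limma adjusted p = 0.354). Os9, the lectin that reads that mark, had 10.30, 10.42 and 10.27 with vehicle and 10.49, 10.47 and 10.53 with DB2313, also a difference of 0.17 (interval 0.01 to 0.32, limma adjusted p = 0.357). Both genes had groups apart, as had Edem1, a relative of Edem2, at 0.10.

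In the ubiquitin ligase complex of ERAD, the scaffold Sel1l differed by -0.11 with groups apart, and the ligase Syvn1 and the membrane cofactor Herpud1 by -0.04 each with groups that overlapped. None of these 3 genes passed (limma adjusted p = 0.569, 0.912 and 0.900). Selenos, a selenoprotein that recruits the extraction ATPase, differed by -0.16 (interval -0.34 to 0.03, limma adjusted p = 0.478). The other derlins, Derl1 and Derl2, differed by -0.01 and -0.10, and Edem3 by 0.01.

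The cytosolic heat shock group had 10 of 15 genes below 0, a median of -0.04 and none past the threshold. In it 2 genes (Hspa2 and Ahsa1) had an unadjusted p under 0.05 (13.3%), where 12.7% of all genes did. Of the 38 related cytosolic chaperones, 16 were below 0 and 22 above, with a median of 0.02. The largest difference of the heat shock group was that of Hspa2, at 0.40. This gene encodes a DnaK-type chaperone best known from male germ cells. Its signals were 6.36, 6.49 and 6.32 with vehicle and 6.62, 6.94 and 6.81 with DB2313. All treated values were above the vehicle values, with an interval from 0.18 to 0.62 (SE 0.095, limma adjusted p = 0.109). The gene passed when genes with signals below the median were left out (adjusted p = 0.0364) and with the trended and robust prior (adjusted p = 0.0313).

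The stress-induced genes Hspa1a and Hspa1b, the classical readout of the heat shock response, were dim. Hspa1a had 3.32, 3.46 and 3.70 with vehicle and 3.28, 3.45 and 3.37 with DB2313. Hspa1b had 3.79, 3.88 and 4.23 with vehicle and 3.71, 3.88 and 3.73 with DB2313. The groups overlapped in both genes, with differences of -0.13 and -0.19 (limma adjusted p = 0.689 and 0.573). With 1 array left out, the difference ran from -0.21 to -0.02 for Hspa1a and from -0.28 to -0.06 for Hspa1b, farthest from 0 without vehicle replicate 1 and nearest without vehicle replicate 3. The 0.25 quantile of all genes was 3.89, and near that end of the scale a signal may understate a change. Both genes are near-identical copies, so their short probes may not tell them apart. Other stress-induced members were brighter, and Dnajb1, a cochaperone, differed by -0.03, Hsph1, an exchange factor, by -0.12, and Bag3, a cochaperone linked to autophagy, by -0.05. Hspb1, a small heat shock protein, differed by 0.17 with an SD of 0.20 in each group. Its signal, 4.43 in vehicle, was also below the median of all genes (5.17), and its dimmer row gave 0.05.

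Among the remaining genes of the cytosolic heat shock group, some lay below 0 and some above, and none passed. Hspa8, the abundant cytosolic chaperone also known as HSC70, had 11.70, 11.61 and 11.56 with vehicle and 11.45, 11.52 and 11.50 with DB2313. All treated values were lower, with a difference of -0.13 (interval -0.28 to 0.02, limma adjusted p = 0.451), and its 3 other rows gave -0.07, -0.17 and -0.18. Hspa4, an exchange factor for it, had 10.19, 10.06 and 10.07 with vehicle and 9.99, 9.95 and 9.94 with DB2313, a difference of -0.15 with groups apart (limma adjusted p = 0.398). Stip1, which links the HSP70 and HSP90 systems, differed by -0.11, and Hsp90aa1, the inducible cytosolic HSP90, by 0.01. Ahsa1, the activator of the HSP90 ATPase, had 9.08, 8.995 and 8.97 with vehicle and 9.18, 9.11 and 9.23 with DB2313. Its treated values were all higher, by 0.16 on average (interval 0.01 to 0.31, limma adjusted p = 0.354). Hspa4l, a relative of Hspa4, differed by 0.16, and the factor Hsf2 and the cochaperone Dnajb4 by -0.04 each.

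None of the 4 mitochondrial chaperones passed, and 2 lay below 0 and 2 above. Hspd1 and Hspe1 encode the chaperonin and its lid, which fold matrix proteins together. Hspd1 had 9.87, 9.88 and 9.81 with vehicle and 9.67, 9.68 and 9.73 with DB2313. All treated values were lower, with a difference of -0.16 (SE 0.058, interval -0.29 to -0.02), and the gene did not pass (limma adjusted p = 0.316), though it did with the trended and robust prior (adjusted p = 0.0429). Hspe1 had 5.91, 5.96 and 5.56 with vehicle and 5.69, 5.54 and 5.57 with DB2313, a difference of -0.21 (interval -0.48 to 0.05, limma adjusted p = 0.503) with groups that overlapped. Its difference was -0.34 without vehicle replicate 3 and -0.14 without vehicle replicate 2. Hspa9, the matrix import chaperone mortalin, and Trap1, the mitochondrial HSP90, differed by 0.08 and 0.11 with groups apart, and neither passed (limma adjusted p = 0.645 and 0.504). Whether these genes differ from Hspd1 and Hspe1 in response was not tested.

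Hspd1 and Hspe1 are neighbours read in opposite directions from a shared promoter. A heat shock element was searched on both strands as GAA, 2 bases, TTC, 2 bases and GAA, or the reverse complement of that. It lay in the windows of 3 of the 43 genes (6.98%), Hspd1, Hspe1 and Hsph1, against 0.662% of all genes with a window. Heat shock genes were chosen by name, so this high share is not an independent result. For Hspd1 and Hspe1 the element is the same stretch, counted for each gene. It is shown as read towards Hspd1, with 2 overlapping matches in capitals.
Hspd1, chr1:55087933-55088182, minus strand: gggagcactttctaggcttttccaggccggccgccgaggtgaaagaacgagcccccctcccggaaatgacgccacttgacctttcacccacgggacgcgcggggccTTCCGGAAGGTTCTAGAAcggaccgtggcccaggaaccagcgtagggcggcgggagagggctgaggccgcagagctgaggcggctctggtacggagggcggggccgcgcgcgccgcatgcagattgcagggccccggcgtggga

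Of the 9 genes with an ERSE, 7 differed by less than 0, with a median of -0.07, and Ero1b alone passed. The range was wide for so few genes, from -0.38 for Ero1b to 0.29 for Derl3. Over all 29 measured genes with an ERSE in the window, 14 were below 0, the median was 0.0038 and 1 was called, Ero1b again. A second form, ERSE-II, with ATTGG and CCACG 1 base apart, lay in the windows of Herpud1 and Dnajb11, against 0.0444% of all genes, and these differed by -0.04 and -0.02. Genes of this response were chosen by name, so that share too is not an independent result. The XBP1 core TGACGTGG, whose opposite strand shares CCACG with the ERSE, and a PU.1 site written as GAGGAAGT were found in 0 of the 43 windows, where 0.714% and 3.69% of all genes had them. Hsph1, with a heat shock element just after its start site, differed by -0.12. A match is a description of these letters in this window and not evidence of binding.

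**Figure D4:**
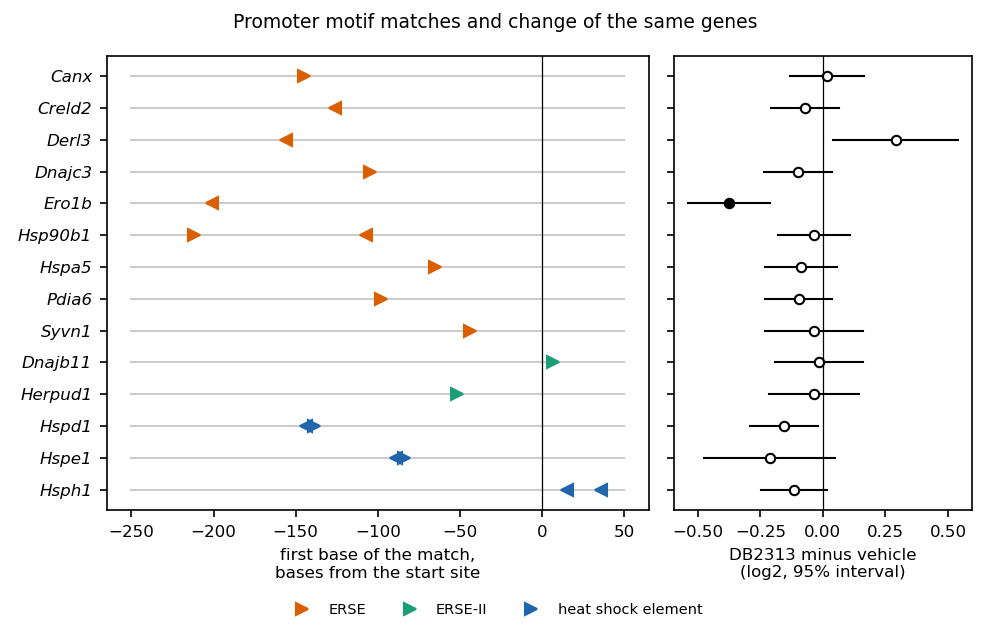
Left, position of the first base of each ERSE, ERSE-II and heat shock element match in the promoter window (x axis, bases from the start site; arrows point right for the strand of the gene and left for the other), for the 14 genes with a match; Hsph1 shows 1 element counted from 2 start sites. Right, difference between DB2313 and vehicle (log2) with its 95% interval; only Ero1b, the filled point at -0.38, passed.

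Related genes of the same pathways gave no calls. A list of 128 measured related genes, covering other ER folding, translocation and ERAD factors, the PERK arm, other cytosolic chaperones and other mitochondrial chaperones and proteases, had 0 genes past the threshold in limma. Of all genes tested, 1.02% were called higher and 0.789% lower. In that list 15 had an unadjusted p under 0.05 (11.7%), 7 higher and 8 lower, close to the 12.7% of all genes, and the median difference was 0.01. In each of the 6 lists the gene with the smallest p is named. Pdia5, a disulfide isomerase, had 7.45, 7.61 and 7.55 with vehicle and 7.83, 7.87 and 7.82 with DB2313, a difference of 0.30 with groups apart (limma adjusted p = 0.0808). Map3k5, a stress kinase that acts below Ern1, had 7.91, 7.93 and 7.92 with vehicle and 7.64, 7.55 and 7.71 with DB2313, a difference of -0.28 with groups apart (limma adjusted p = 0.0967). Hspb6, a small heat shock protein, differed by 0.22 (limma adjusted p = 0.169). These 3 genes passed in some alternative settings, Pdia5 in 4 of 13 and the others in 3 of 13 each. The signal peptidase subunit Spcs2 (-0.18), the ERAD factor Tmub1 (0.17) and the mitochondrial protease Yme1l1 (-0.09) passed in none of the 13.

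The third arm of the unfolded protein response runs through the kinase PERK, encoded by Eif2ak3, to the transcription factors ATF4 and CHOP. These 3 genes are named for their place in the pathway and not by their values. Eif2ak3 differed by -0.04 and Atf4 by -0.11, both with groups that overlapped. Ddit3, which encodes CHOP, had 7.40, 7.54 and 7.17 with vehicle and 7.58, 7.61 and 7.67 with DB2313. Its treated values were all higher, by 0.25 on average (interval 0.02 to 0.47), and it did not pass (limma adjusted p = 0.342). The related list that holds these genes had 15 measured, 9 below 0 and 6 above. In the same list Ppp1r15b differed by -0.18 with all treated values lower (limma adjusted p = 0.313). Trib3 differed by -0.19, Chac1 by 0.03 and Ppp1r15a by 0.02, all with groups that overlapped.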

How the data were processed

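Total RNA from the 6 samples was labelled with a whole-transcript Affymetrix kit, per the labels' protocols, and the submitters' processing notes name Affymetrix Expression Console. The deposited values are log2 signals, 1 per probe set and array, as judged from their range. How background was corrected and probes were summarised, and on which build, is not given in the sources used here. Near-equal quartiles mean that a shift common to all genes would not be seen. No scanner files or scan batches were examined here, and the number of arrays limits the precision.

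Of 41345 rows, 23521 had 1 gene symbol, 1814 had several and 16010 had no entry in the platform annotation; only the first were tested, with the brightest row for the 1082 genes with several. DB2313 was compared with vehicle in limma 3.58.1 (R 4.3.3; lmFit, eBayes, 2-sided, no minimum fold), with Benjamini-Hochberg adjustment over 22180 genes at 0.05 and 95% intervals. On simulated arrays the test called 55.6% of changes of 0.5, 94.4% of changes of 1 and 100% of changes of 2 (log2). Sizes between 0 and 0.5 were not simulated, and the largest difference among the members was 0.40. A gene that did not pass may therefore have changed, within the limits of its own 95% interval. For 37 of the 49 members not called, that interval lay within a 1.25-fold change in either direction. Alternatives were 2 filters on signal, quantile normalization, an offset of 32 on the linear scale, the mean of a gene's rows, the replicate number as a block, a prior that is trended and robust, and each array left out.

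Members and lists were chosen with earlier results of these data known. Named by rule were Xbp1, Hspa5, Hsf1, Hspa1a and Hspa1b, members past the threshold, in each role the 4 smallest p and the largest difference, and the smallest p in each related list. Other members are named for a motif, for separated groups or for their role. Promoter sequences are RefSeq's for GRCm38.p6, and no build is given for the array.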

Additional observations from a re-analysis of the deposited data

How the results depend on the processing

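The number of members called depended on the settings, and Ero1b was the only member called lower in the fit as reported. With each array left out, 0 members were called lower and 0 higher, among 136 to 187 genes called in all against 401. With the replicate number as a block, 0 members were called lower and Ero1b had an adjusted p of 0.127, with 190 genes called in all. The deviations of same-numbered arrays correlated at 0.0226, 0.0781 and 0.00828, and not every array correlated best with its own number, so the numbers were not taken to pair the samples. With the trended and robust prior, 2 members were higher (Hspa2 and Ern1) and 2 lower (Ero1b and Hspd1), among 920 genes called. When only genes above the median signal were tested, 1 member was higher (Hspa2) among 799 genes called, and an offset of 32 gave 830. The median difference of ER folding genes ranged from -0.0747 to -0.0293 and that of all members from -0.0477 to -0.0136 with 1 array left out, and the values nearest 0 came without DB2313 replicate 1 and without vehicle replicate 2. The sign of the median turned in 3 of 13 settings for ERAD and in 1 of 13 for translocation, and in none for the other roles. The cause of these shifts was not tested. Background signal was not examined here, so for Hspa1a and Hspa1b, near the lower end of the scale, a small change was not detectable.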

Other observations

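Some members had the same replicate number as the highest array in both groups. Replicate 2 was the highest array of its group in both groups for 10 of the 50 members (20%) and for 13.2% of all genes tested. For replicates 1 and 3 this held for 3 and 4 members (6% and 8%), below the 10.2% and 11.9% of all genes. The share of members was thus above that of all genes for replicate 2 only. The 10 were Xbp1, Hspa5, P4hb, Dnajb9, Dnajc3, Ero1a, Edem2, Hspa2, Dnajb1 and Dnajb4. Ero1a, a hypoxia-induced oxidase, had 11.42, 11.79 and 11.49 with vehicle and 11.33, 11.69 and 11.39 with DB2313, so that DB2313 was lower by nearly the same amount at each number, with differences of -0.09, -0.10 and -0.10. P4hb, its isomerase partner, had 10.73, 10.90 and 10.74 with vehicle and 10.65, 10.85 and 10.71 with DB2313. With the replicate number as a block, the SE for Ero1a fell from 0.126 to 0.061. Neither Ero1a nor P4hb passed in that fit (limma adjusted p = 0.587 and 0.778). The labels do not say that a number marks a shared day or culture. Whether the members share the pattern more than other genes was not tested.

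Rows other than the brightest were present for 8 members. Their sign matched that of the row kept for all but 1, Derl2, with 0.05 in its dimmer row against -0.10. Hspa8 had the most rows, and all 4 were below 0.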
